A study of Mus musculus with 4 samples.

Results

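The Hox genes are the members of the mouse HoxA, HoxB, HoxC and HoxD clusters, here every gene whose symbol is Hox, a cluster letter and a paralogue number and that has a probe set with no other gene symbol. Of 39 such genes in RefSeq, 33 had a probe set of their own in the data used here, 48 probe sets in all, among 18193 genes on the array. Of the other 6, which are not analysed as members here, Hoxb8 and Hoxd4 shared 3 probe sets with a neighbouring Hox gene. The cells were cultured skin melanocytes on a Balb/c background, all grown in RPMI medium with FCS, 2-mercaptoethanol and the phorbol ester TPA, with 2 arrays of total RNA per line and 4 in all. Cells without pigment had a homozygous point mutation in Tyr, which encodes the enzyme at the head of the melanin pathway. In the pigmented line, labelled wild type, that mutation was corrected. Each group is therefore 1 cell line, and a difference between groups is a difference between these 2 lines. Nothing in the labels says that the arrays of a line came from separate cultures, so p-values rest on the spread between arrays alone, and that spread may be technical.

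Hox genes encode homeodomain transcription factors. In the embryo they are switched on in the order in which they lie along each cluster, with low paralogue numbers toward the head and high numbers toward the tail, so that the set of Hox genes a cell uses marks its level along the body axis. Melanocytes come from the neural crest, whose most anterior part uses no Hox genes, while crest of the hindbrain and trunk does. Cultured skin cells, fibroblasts above all, are known to keep part of the Hox pattern of the place they came from.

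The arrays are described by a few values. The median probe set signal lay between 99.7 and 130. The signal ratio of the 3′ to the 5′ control probe set of Gapdh, which rises when RNA is degraded, was 0.903 and 0.864 in replicate 1 of the non-pigmented and of the pigmented line, and 20.2 and 16.8 in replicate 2 of either line. Sox10, a factor of the melanocyte and the glial lineage, was bright in both lines, with signals from 8268 to 10230, but does not tell these lineages apart. All 12 melanocyte markers were clearly expressed in the pigmented line, against 7 of 12 in the non-pigmented line, where 49% and 53% of all genes were. Tyr, Kit, Ednrb, Oca2 and Gpr143 were the markers not clearly expressed in the non-pigmented line. All 12 had a higher mean level in the pigmented line, 9 of them past limma's test, where 1.33% of all tested genes rose. Kit and Ednrb, of these 9, had non-pigmented means of 6.38 and 4.91, under the limit of 6.44 for testing. They were tested only through the pigmented line and had to differ, so the count cannot be read against that share. Tyr, the corrected gene, had signals of 214 and 67.2 in the non-pigmented arrays and of 17310 and 11700 in the pigmented arrays, although a point mutation need not change an RNA level.

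Most Hox genes were near background in both lines. Those clearly expressed by the rule below lay in the anterior and central part of HoxA, plus Hoxc6. The files used here hold no detection call, so the background level of an array was taken as the 95th percentile of its 77 probe sets for olfactory and vomeronasal receptors, which belong to sensory neurons of the nose. It was 131 and 151 in the non-pigmented arrays and 180 and 195 in the pigmented arrays. A gene was called clearly expressed in a line when its brightest probe set (highest mean over the 4 arrays) lay above that level on both arrays. By this rule 3 of 33 Hox genes, or 9.09%, were clearly expressed in the non-pigmented line (Hoxa3, Hoxa5 and Hoxc6), where 53% of all genes on the array were. In the pigmented line 1 of 33 was, or 3.03% (Hoxa5), where 49% of all genes were. Of the 33, 25 lay at or below background on every array, 7 lay above it on 1 to 3 arrays, and Hoxa5 did so on all 4. Hoxc6 in the pigmented line missed the level on replicate 1, with 167 against 180. Against the 99th percentile of the same receptor probe sets, which was 347 and 545 in the non-pigmented arrays, only Hoxa5 remained in that line.

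**Figure D1:**
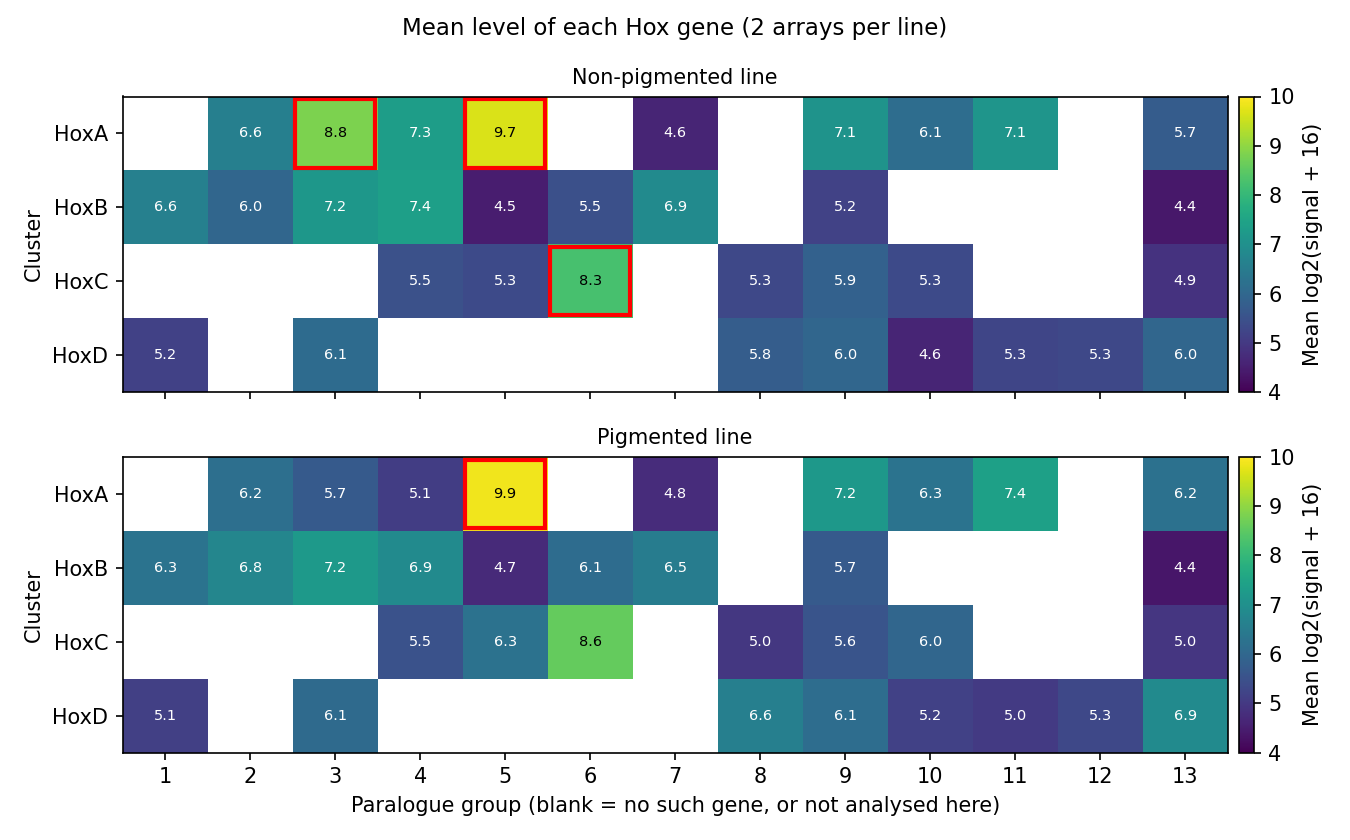
Mean level of each Hox gene as log2(signal + 16) over 2 arrays, by cluster (rows) and paralogue group (columns), in the non-pigmented (top) and pigmented (bottom) line, with a red frame for clearly expressed genes. Hoxa3, Hoxa5 and Hoxc6 are framed in the non-pigmented line and only Hoxa5 is in the pigmented line, while the HoxB and HoxD rows hold no frame.

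By the rule above, the clearly expressed genes lay in HoxA and HoxC. HoxA had 9 genes on the array, with median signals of 112 and 106 in the non-pigmented and 66.7 and 48.6 in the pigmented arrays, and 4 of the 9 lay at or below background throughout. HoxB had 9 genes, of which 7 stayed at or below background, and its highest signal was 214, for Hoxb3 in pigmented replicate 1. HoxC had 7 genes, of which all but Hoxc6 stayed there. All 8 HoxD genes stayed there too, and their highest signal was 138, for Hoxd8 in pigmented replicate 1. By position, 1 of 7 genes of paralogue groups 1 to 3 and 2 of 12 of groups 4 to 8 were clearly expressed in the non-pigmented line. None of 14 genes of groups 9 to 13 was, in either line. This pattern depends on the background level. With the array median as background, Hoxa9 was clearly expressed in the non-pigmented and Hoxa11 in the pigmented line. Hoxb3 and Hoxb4 then were too in the non-pigmented line.

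The difference between the lines was tested for the 9 Hox genes whose mean log2(signal + 16) was at least 6.44, the 40th percentile of all probe sets, with limma over all 12558 genes past that limit and Benjamini-Hochberg adjustment. The other 24 were too dim to be tested, and a member that passed the limit through one bright line alone had to differ. Hoxa3 fell in the pigmented line, 1 of 9 tested, where 2.03% of all tested genes fell. Its pigmented mean of 5.69 was under the limit, so it is such a member, and its count supports nothing about the Hox genes as a group. None of the 9 rose, where 1.33% of all tested genes did. At an unadjusted p under 0.05 the count was 1 of 9, Hoxa3, against 13.8% of all tested genes. The median difference was 0.08 over the 9 tested members and 0.07 over all tested genes, on the log2(signal + 16) scale, pigmented minus non-pigmented. In simulated data of 2 against 2 arrays, limma recovered 2.05% of changes of a log2 size of 2 and 65.8% of those of size 4. The simulation changed 200 of 12558 genes and gave the arrays no shared effect of RNA integrity. In the real data 422 genes were called, so these shares need not be the recovery here. A miss at this number of arrays still says little about smaller changes.

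The upstream sequences of Hoxa3, Hoxa5 and Hoxa7 are shown because Hoxa3 and 1 probe set of Hoxa5 were brighter in the non-pigmented line, while Hoxa7, the next gene on the array, was near the bottom of the signal range in both. They are the 250 bases before the RefSeq start, 5′ to 3′ in the direction of transcription, from the C57BL/6J build GRCm38.p6 and not from the Balb/c cells. Hoxa4 had no entry. The RefSeq gene model of Hoxa3 is long and spans Hoxa4, Hoxa5 and Hoxa6, so the Hoxa3 window lies upstream of the Hoxa5 window. Whether the Hoxa3 probe sets read RNA from that start was not tested. Capitals mark matches, on either strand, to CCAAT (the CCAAT box), TATAAA (the TATA box), TGATNNAT (a joint site of Pbx and Hox proteins), TGACAG (a Meis site) or AGGTCA (a nuclear receptor half-site).
Hoxa3 (chr6:52213068-52213317, minus strand): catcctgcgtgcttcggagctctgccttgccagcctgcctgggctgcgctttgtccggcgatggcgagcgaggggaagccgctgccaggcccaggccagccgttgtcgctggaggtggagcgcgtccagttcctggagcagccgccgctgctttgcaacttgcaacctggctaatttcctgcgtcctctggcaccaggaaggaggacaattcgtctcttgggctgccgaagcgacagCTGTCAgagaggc
Hoxa5 (chr6:52204588-52204837, minus strand): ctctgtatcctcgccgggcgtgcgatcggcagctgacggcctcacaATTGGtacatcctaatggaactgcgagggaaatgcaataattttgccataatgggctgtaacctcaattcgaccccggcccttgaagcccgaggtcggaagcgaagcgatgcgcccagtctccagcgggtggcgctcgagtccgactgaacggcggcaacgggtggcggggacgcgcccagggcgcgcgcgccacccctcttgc
Hoxa7 (chr6:52218574-52218823, minus strand): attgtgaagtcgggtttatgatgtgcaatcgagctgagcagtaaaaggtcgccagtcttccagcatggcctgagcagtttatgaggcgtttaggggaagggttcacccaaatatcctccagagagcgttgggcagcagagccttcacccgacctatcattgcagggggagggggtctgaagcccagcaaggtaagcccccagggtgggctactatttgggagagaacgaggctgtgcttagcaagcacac

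Hoxa3 held a match to TGACAG at 13 bases before the start, as 15.9% of 32851 RefSeq windows of this length do somewhere. Hoxa5 held a match to CCAAT at 204 bases before it, as 33.8% of all windows do, and Hoxa7 held none of the 5 motifs. A match to TATAAA was in 12.4%, one to TGATNNAT in 7.68% and one to AGGTCA in 14% of all windows, and in none of these 3. CG dinucleotides numbered 18 in the window of Hoxa3, 28 in that of Hoxa5 and 7 in that of Hoxa7, against a median of 6 over all windows. Over the 19 Hox members with an entry, which have 21 windows, the median was 13, with a range from 2 to 35. These are counts of letters and say nothing of which proteins bind there.

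Hoxa3 (Entrez gene 15400, chromosome 6), which acts in the development of the pharyngeal arches and the hindbrain, was bright in the non-pigmented line and near background in the pigmented line. By its brightest probe set, 1427433_s_at, the signal was 553 and 343 in the non-pigmented arrays and 38.1 and 33.5 in the pigmented arrays. The lines did not overlap, and only the non-pigmented arrays were above background. The mean log2(signal + 16) was 8.82 ± 0.47 (SD, n = 2) in the non-pigmented and 5.69 ± 0.09 (SD, n = 2) in the pigmented line, a difference of -3.13 ± 0.46 (limma SE), or 8.74-fold, with a limma adjusted p of 0.0223. The fold depends on the constant added before the logarithm, since the pigmented line was below background: the difference was -3.57 with 1 added and -2.33 with 64. It was -3.40 within the pair of arrays with a low Gapdh ratio and -2.86 within the pair with a high ratio. Without non-pigmented replicate 1 the difference was -2.80 and no longer passed, with a limma adjusted p of 0.112, nor did it with no filter on dim genes (0.0521).

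All 4 probe sets of Hoxa3 had lower signals in both pigmented than in both non-pigmented arrays, but 2 of them stayed near or below background. The probe set 1452421_at, which lists the same source sequence as the one above, gave 433 and 359 in the non-pigmented against 53.3 and 17.4 in the pigmented arrays. The probe set 1431392_at gave 133 and 110 against 86.4 and 99.04, and 1429398_at gave 34.0 and 16.7 against 7.09 and 12.8. So the large difference rests on 2 probe sets of 1 source sequence. In the mean over all 4 probe sets the difference was -1.80 with a limma adjusted p of 0.0870, and in a fit over 27022 probe sets, where 0.903% fell, the 2 bright probe sets had adjusted p-values of 0.0509 and 0.0719.

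Hoxa4 (Entrez gene 15401), a neighbour of Hoxa3 with roles in the axial skeleton, had the same order of signals at a lower level. By 1427354_at the signal was 223 and 93.7 in the non-pigmented and 10.1 and 29.1 in the pigmented arrays. The lines did not overlap, but only non-pigmented replicate 1 was above background. The difference was -2.24, and Hoxa4 was too dim for the main test. With no filter on dim genes it had a limma adjusted p of 0.197. Its other probe set, 1420226_x_at, lay below background throughout, with 50.9 and 46.1 against 39.6 and 18.1. Without an overlap between the lines, 3 of 33 Hox genes were lower in the pigmented line (Hoxa3, Hoxa4 and Hoxb4), or 9.09%, where 16.9% of all genes were. Without an overlap 5 of 33 were higher (Hoxa13, Hoxb2, Hoxd8, Hoxd10 and Hoxd13), or 15.2%, where 24.4% of all genes were, and all 5 lay below background on every array.

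Hoxa5 (Entrez gene 15402), which acts in the cervical and upper thoracic skeleton and in the lung, had probe sets that disagreed. By 1448926_at the signal was 1254 and 412 in the non-pigmented and 20.6 and 57.4 in the pigmented arrays. The lines did not overlap, and the pigmented arrays were below background. By 1443803_x_at, the brightest probe set and so the one in the main test, the signal was 544 and 1147 in the non-pigmented and 480 and 1773 in the pigmented arrays. Here both lines overlapped, all arrays were above background, and in either line replicate 2, with the high Gapdh ratio, was the brighter one. The x in the name marks a probe set of which some probes also match other sequences. That the disagreement comes from such matches was not tested.

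The call for Hoxa5 turned on the probe set. By 1443803_x_at the difference was 0.22 ± 0.73 with a 95% interval from -1.54 to 1.99 and a limma adjusted p of 0.934. When probe sets with x or s in their names were left out, a choice made after seeing the data, Hoxa5 was represented by 1448926_at and fell by 3.83 ± 0.67, with a limma adjusted p of 0.0391. In that fit 2 Hox genes fell, Hoxa3 and Hoxa5, where 2.08% of all 12458 tested genes did. The fit over probe sets gave 1448926_at an adjusted p of 0.0747. Under this choice no Hox gene was clearly expressed in the pigmented line.

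**Figure D2:**
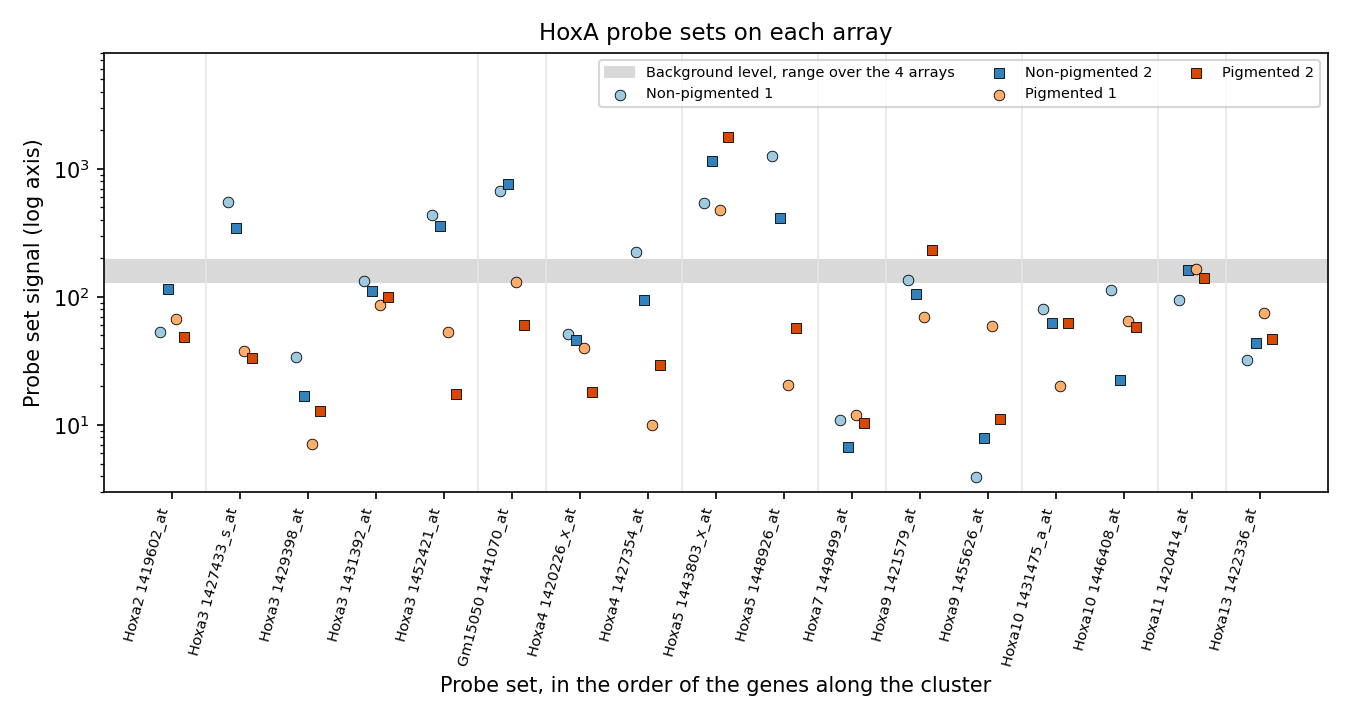
Signal of every HoxA probe set and of Gm15050 on each array (log axis), with genes in their order along the cluster and the range of background levels in grey. Non-pigmented arrays (blue) lie above the pigmented ones (orange) in the bright probe sets of Hoxa3, Gm15050, Hoxa4 and 1 of 2 of Hoxa5, and the other Hoxa5 probe set is bright on all arrays.

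A long noncoding RNA gene inside the same stretch differed in the same direction. In RefSeq the gene model of Hoxa3 spans Hoxa4, Hoxa5 and Hoxa6, and Gm15050 lies within it, between Hoxa2 and Hoxa4. Gm15050, which was picked out after its values were seen, had a signal of 673 and 757 in the non-pigmented and of 131 and 60.3 in the pigmented arrays. The lines did not overlap, and the difference was -2.78 ± 0.49 with a limma adjusted p of 0.0386. Without either non-pigmented array it did not pass, with limma adjusted p-values of 0.110 and 0.134. It was 1 of 5 genes on the array among 31 RefSeq genes that lie within the clusters and are not coding Hox genes. The others, Hoxa11os, Hoxb5os, Hoxd3os1 and Gm38462, lay below background on all arrays, with a highest signal of 120. Since these genes overlap and the strand that a probe set reads was not checked here, RNA of Hoxa3 and of Gm15050 cannot be told apart with certainty.

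The HoxA genes on either side of this stretch were clearly expressed in neither line. Hoxa2, the neighbour toward the head end, which patterns the second pharyngeal arch, had signals of 53.5 and 115 in the non-pigmented and 66.7 and 48.6 in the pigmented arrays. These overlapped and lay below background. Hoxa7, toward the tail end, was dim in both lines, with 11 and 6.73 against 11.9 and 10.4. The posterior HoxA genes followed no line: Hoxa9 gave 136 and 106 against 69.7 and 231, and Hoxa11, a limb and kidney gene, 93.7 and 163 against 165 and 141. Hoxa9 was above background on non-pigmented replicate 1 and pigmented replicate 2, and Hoxa11 on non-pigmented replicate 2. The second probe set of Hoxa9 stayed at 58.8 or less. Their differences were 0.10 ± 0.61 and 0.27 ± 0.47, and neither passed. Hoxa10 and Hoxa13, which act in the limb and the urogenital tract, stayed at 112 or less on every array.

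Hoxc6 (Entrez gene 15425), a thoracic gene of the HoxC cluster, was the brightest member outside HoxA. By 1427362_x_at its signal was 258 and 327 in the non-pigmented and 167 and 794 in the pigmented arrays. The lines overlapped, and the highest value, of pigmented replicate 2, was on an array with a high Gapdh ratio. The difference was 0.33 ± 0.73 with a 95% interval from -1.45 to 2.11, which holds differences of several fold in either direction. The sister probe set 1427361_at gave 150 and 260 against 140 and 764, while the third, 1427454_at, stayed below background at 12.8 and 20.9 against 39.3 and 66.6. The genes beside it in HoxC did not share this signal: Hoxc4, Hoxc5, Hoxc8 and Hoxc9 had their highest values at 56.7, 95.8, 27.2 and 94.8. Hoxc10 and Hoxc13, the posterior members on the array, reached 108 and 17.5.

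HoxB genes were dim and showed no difference that passed. Hoxb3 and Hoxb4, which act in the hindbrain and in blood progenitors, were the brightest by mean level. Hoxb3 gave 129 and 126 in the non-pigmented and 214 and 83.4 in the pigmented arrays, a difference of 0.08 ± 0.54. Hoxb4 gave 155 and 146 against 140 and 71.2, a difference of -0.51 ± 0.48 with a 95% interval from -1.68 to 0.66. Its other probe set had a difference of the opposite sign, 0.47, so the members of this pair disagreed. Hoxb1, a gene of hindbrain segments, and Hoxb7 had differences of -0.34 ± 0.54 and -0.36 ± 0.76. The signals of Hoxb7 were 73.4 and 138 in the non-pigmented and 28.5 and 172 in the pigmented arrays, below background on each. The remaining HoxB genes were too dim to be tested. Hoxb2 reached 101, Hoxb9 reached 43.9, and Hoxb5 and Hoxb13 reached only 11.8 and 6.78.

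HoxD genes, which act in the trunk and limbs, gave no signal above background on any array. The tested set held none of the 8. Hoxd8 came nearest, with 36.9 and 40.6 in the non-pigmented and 138 and 44.8 in the pigmented arrays. Its other probe set had the opposite order, with 30.8 and 37.6 against 13.1 and 28.6. Hoxd13, a gene of the digits, gave 33.0 and 65.6 against 119 and 85.7 by the brighter of its 2 probe sets, while the other stayed at 9.21 or less. The anterior genes Hoxd1 and Hoxd3 reached 42.3 and 78.9, and Hoxd9, Hoxd10, Hoxd11 and Hoxd12 reached 92.3, 23.4, 54.4 and 28.7. The 3 probe sets shared by Hox neighbours were below background too, with a highest signal of 91.2 for the one of Hoxb8 and Hoxb7 and 113 for those of Hoxd4 and Hoxd3.

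**Figure D3:**
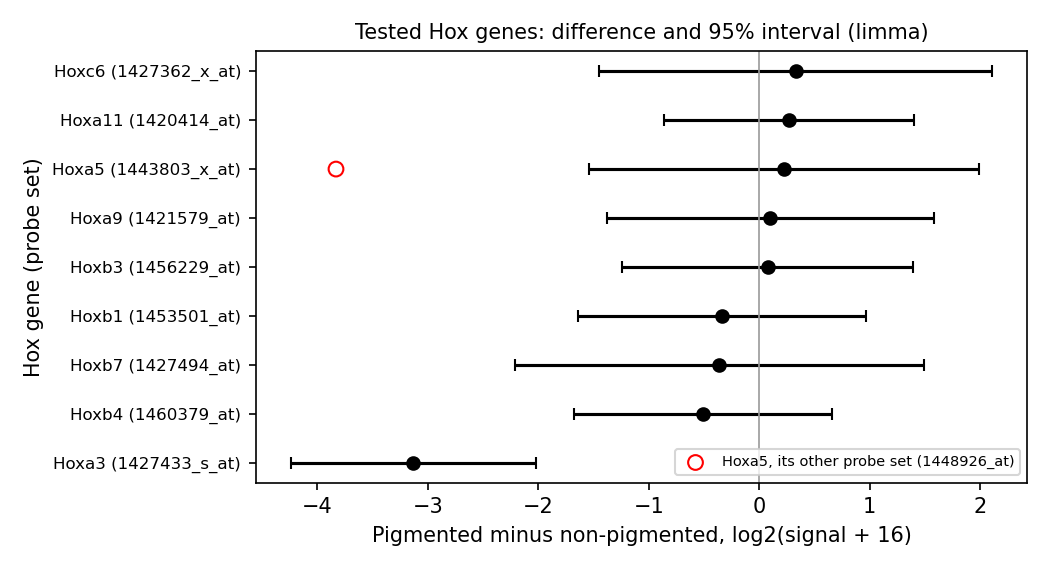
Difference between the lines in log2(signal + 16), pigmented minus non-pigmented, for the 9 tested Hox genes, with points for the limma estimate and bars for the 95% interval. Only the interval of Hoxa3, from -4.24 to -2.02, leaves out 0, and the open circle shows the other probe set of Hoxa5 at -3.83.

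Most partners of Hox proteins were clearly expressed in both lines. Pbx, Meis and Pknox proteins bind DNA together with Hox proteins. Of 9 genes listed, 8 were on the array. All of these but Pknox2, Meis1 and Pbx4 were clearly expressed in both lines, Pknox2 was so in the non-pigmented and Meis1 in the pigmented line alone, and Pbx4 in neither. That makes 6 of 8 in each line, where 53% and 49% of all genes were. Of 7 tested none rose or fell by limma. Before adjustment 1 of them had a p under 0.05, where 13.8% of all tested genes did. It was Pknox2, with signals of 931 and 470 in the non-pigmented and 127 and 101 in the pigmented arrays. Its lines did not overlap, and the difference was -2.39 ± 0.49 with a limma adjusted p of 0.0664. It passed with the RNA integrity pair as a block, with a limma adjusted p of 0.0243, and under quantile normalization (0.0444) and median centring (0.0408). Under most other settings Pknox2 did not pass. Among these were the date in the sample titles as a block (0.106) and no filter on dim genes (0.125). With the mean of its probe sets the difference was -1.77 (0.0901). The median difference of the 7 was 0.16, against 0.07 over all tested genes.

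Chromatin regulators of the Hox clusters were expressed throughout and did not pass. Polycomb proteins keep silent Hox genes off and Trithorax proteins keep active ones on. All 39 genes of this list on the array were tested and clearly expressed in both lines, and none rose or fell by limma. Before adjustment 4 of 39 had a p under 0.05, where 13.8% of all tested genes did. The smallest p was that of Pcgf5, a subunit of Polycomb complex 1, with signals of 2051 and 1297 in the non-pigmented and 528 and 205 in the pigmented arrays. Its difference was -2.25 ± 0.58 with a limma adjusted p of 0.127, which became 0.0225 with the RNA integrity pair as a block. The median difference of the list was 0.28.

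Genes of retinoic acid, the vitamin A product that switches on anterior Hox genes in the embryo, differed in 4 of 10 tested, where 3.36% of all tested genes did. Of these 3 fell in the pigmented line and 1 rose. All 4 had a mean under the limit of 6.44 in their dim line and were tested only through the line where they are bright, so the count supports nothing about the list. Aldh1a3 and Aldh1a1 encode enzymes that make retinoic acid. Aldh1a3 gave 2785 and 1099 in the non-pigmented and 15.1 and 1.86 in the pigmented arrays, and fell by 6.23 ± 0.60 (limma adjusted p of 0.00702). Aldh1a1 gave 217 and 806 against 16.9 and 6.24, and fell by 4.02 ± 0.69 (limma adjusted p of 0.0369). In both genes the pigmented arrays were below background, so the size depends on the constant added before the logarithm. With 1 and with 64 added the difference was -8.01 and -4.66 for Aldh1a3 and -5.20 and -2.71 for Aldh1a1, and with 64 that of Aldh1a1 no longer passed (limma adjusted p of 0.0580).

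Cyp26b1, which breaks retinoic acid down, fell as well. It gave 620 and 373 in the non-pigmented against 23.0 and 40.3 in the pigmented arrays and fell by 3.41 ± 0.49 (limma adjusted p of 0.0204). The pigmented arrays were below background here too, and the difference was -3.93 with 1 added and -2.52 with 64. Rarb, a retinoic acid receptor gene that is itself a target of retinoic acid, moved the other way. It gave 84.9 and 31.5 in the non-pigmented and 616 and 814 in the pigmented arrays, a rise of 3.39 ± 0.52 (limma adjusted p of 0.0265). Its non-pigmented arrays were below background, and the difference was 3.75 with 1 added and 2.70 with 64. The receptor genes Rarg and Rxra had differences of -0.14 and -0.06 and did not pass. The list's median difference was -0.10. Without non-pigmented replicate 2 the count was 2 of 10, as Aldh1a1 and Rarb had limma adjusted p-values of 0.115 and 0.0863. Without non-pigmented replicate 1 that of Cyp26b1 was 0.0914, and with the mean of several probe sets that of Aldh1a3 was 0.0556.

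**Figure D4:**
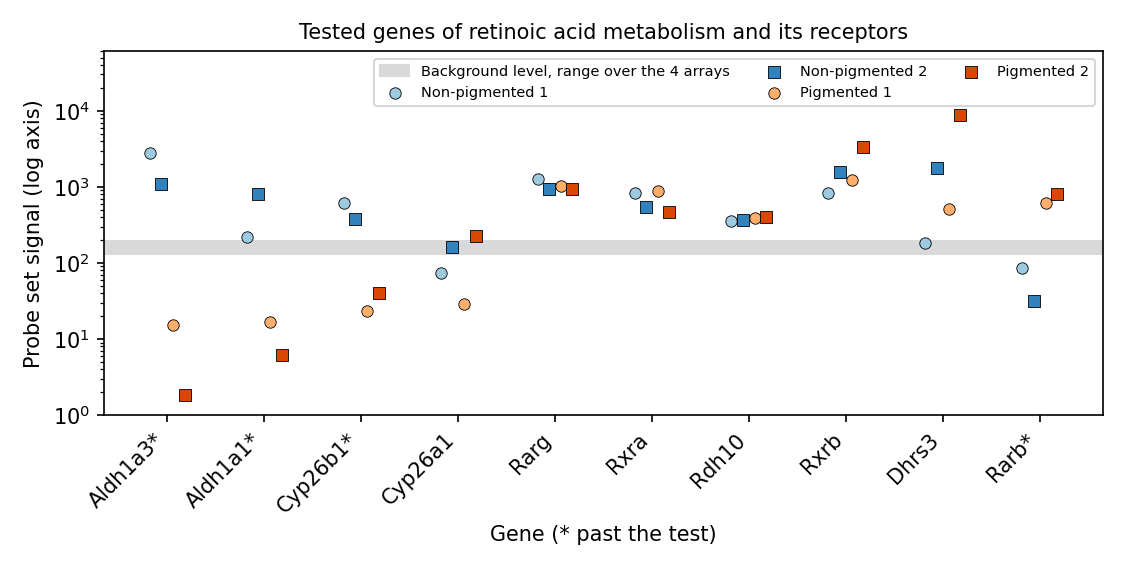
Signal on each array (log axis) of the 10 tested genes of retinoic acid metabolism and its receptors, ordered by their difference, with a star for genes past the test and the range of background levels in grey. Aldh1a3, Aldh1a1 and Cyp26b1 are bright in the non-pigmented arrays only, and Rarb in the pigmented arrays only.

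Other transcription factors that mark body position were mostly dim, as the Hox genes were. Of 48 on the array, 8 were clearly expressed in the non-pigmented and 6 in the pigmented line, where 53% and 49% of all genes were. Dlx2, a factor of the head and pharyngeal arches, was the 1 of 14 tested that fell, where 2.03% of all tested genes did. It too was tested only through its bright line, with a pigmented mean of 5.69, and had signals of 250 and 397 in the non-pigmented and 26.3 and 47.2 in the pigmented arrays. Its difference was -2.68 ± 0.49 with a limma adjusted p of 0.0439, and 0.0547 with the date in the sample titles as a block. It did not pass without non-pigmented replicate 1 (0.0948) or 2 (0.222). Its pigmented arrays were below background, and the difference was -3.12 with 1 added and -1.92 with 64. Irx3, Irx5, Msx1, Alx1, Tbx2 and Shox2 were clearly expressed in both lines, and Dlx2 and Irx1 in the non-pigmented line alone. Shox2, for one, gave 1084 and 889 in the non-pigmented and 1074 and 1172 in the pigmented arrays. The rest of the list, Pitx1, Tbx4, Tbx5, Tbx15, Prrx1 and En1 among them, were clearly expressed in neither line. Cdx1, Cdx2 and Cdx4, which switch on central and posterior Hox genes, were not either.

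Markers of other cells that could carry Hox RNA were measured on the same arrays. Of 10 fibroblast markers 8 were clearly expressed in neither line, among them Pdgfra, Dcn and Col1a1. In the non-pigmented line 1 of 10 was clearly expressed and in the pigmented line 2, where 53% and 49% of all genes were. None of 6 tested rose or fell by limma, where 3.36% of all tested genes did. Before adjustment Col1a2 alone had a p under 0.05, where 13.8% of all tested genes did. The summed signal of the 10 markers was 1260 and 1160 in the non-pigmented and 4200 and 1980 in the pigmented arrays. Most of the pigmented sum came from Col1a2, with 1222 and 1176, and Fbln1, with 2419 and 215. Col3a1 and Dcn had the opposite order of mean levels, with signals of 102 and 231 against 85.1 and 14.7 for Col3a1 and of 136 and 54.7 against 55.0 and 10.3 for Dcn. Among markers of Schwann cells and neural crest progenitors, 5 of 9 tested fell in the pigmented line, where 2.03% of all tested genes did. They were Nes, Mbp, S100b, Pmp22 and Sox2. Nes and Sox2, with pigmented means of 6.17 and 5.08, were tested only through their bright line and had to differ. The count can therefore not be read against that share. Mbp, S100b and Pmp22 had pigmented means of 6.79, 7.65 and 6.51, above the limit for testing. Foxd3 and Mal had differences of the opposite sign, 1.95 and 1.76, which did not pass. The summed signal of the list was 22900 and 28000 against 3220 and 4190. Nes, a progenitor gene, gave 1881 and 3528 against 43.3 and 71.6. Among keratinocyte markers 1 of 4 tested fell, Krt10, where 2.03% of all tested genes did. It too was tested only through its bright line, with a pigmented mean of 5.21, so this count supports nothing about the list. The summed signals of the list were 932 and 936 against 604 and 576. Krt5 gave 91.4 and 104 against 195 and 214 and did not pass. None of 4 muscle, 4 immune or 1 endothelial marker genes tested rose or fell by limma, where 3.36% of all tested genes did. Before adjustment 2, 1 and 0 had a p under 0.05, where 13.8% of all tested genes did. In the non-pigmented line the summed signals ran from 2060 to 5560 for muscle, 1300 to 2680 for immune and 298 to 304 for endothelial genes. In the pigmented line they ran from 891 to 1100, 569 to 1160 and 448 to 593. The part of these markers in the Hox differences was not tested. In bulk samples, fewer cells of a type and less RNA per cell cannot be told apart.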

How the data were processed

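RNA of 2 mouse melanocyte lines was measured on 4 Affymetrix arrays. The deposited values are linear probe set intensities made with Affymetrix Expression Console, per the submitters' processing notes; its version and algorithm are not given in the sources used here. Each deposited column has a mean of 500 after trimming 2% at either end. Such scaling does not correct for RNA integrity. Of 45101 probe sets, 64 controls were left out. All 33 members matched RefSeq by Entrez number.

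Each gene was represented by its brightest probe set as log2(signal + 16), and genes under the 40th percentile (log2 6.44, signal 70.7) were left out. Differences were fitted in R 4.3.3 by limma 3.58.1 (eBayes with trend) and adjusted by Benjamini-Hochberg over 12558 genes, with calls at 0.05. An exact permutation test of 2 against 2 arrays cannot go below 0.333. In simulated data (200 of 12558 genes changed, arrays drawn independently, 20 runs) 3.56% of calls were false.

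All Hox genes could be named, and of other lists the called genes, the smallest p where none was called, and markers; other names were added after their values were seen. The members and lists were chosen with earlier results of these data known. Titles carry 2 dates, each shared by 1 array of either line. Deviations of arrays from the mean of their line correlated at 0.51 across genes for arrays of like RNA integrity (Gapdh ratio over 3 or not). With 2 arrays per line, the value for same-date arrays must be the same number with the opposite sign, -0.51. The 2 values are therefore 1 observation. Alternatives were blocks for date and integrity, normalizations, filters, pseudocounts, variance models, probe set rules, background levels and leaving out each array. The rule without x and s probe sets and the fit over probe sets were added after seeing the data. Plots were made in Python 3.11.15 using matplotlib 3.10.9.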

Additional observations from a re-analysis of the deposited data

How the results depend on the processing

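With the date in the titles as a replicate block, 1 Hox gene fell (Hoxa3, limma adjusted p of 0.0214) and 0 positional factors passed; other counts kept their value. No setting called a Hox gene higher by limma. The count of lower Hox genes was 0 with no filter, 0 with a filter at the 60th percentile (Hoxa3 is then not tested) and 0 with averaged probe sets, 2 without x and s probe sets, and 0 to 1 without single arrays. Cofactors called numbered 1 with the integrity block, 1 under quantile normalization and 1 under median centring, and 0 to 1 without single arrays. Polycomb and Trithorax genes called numbered 1 with the integrity block and 0 to 2 without single arrays (Jarid2 and Pcgf5 without pigmented replicate 1). Retinoic acid genes called numbered 2 with no filter, 2 at the 60th percentile and 2 to 4 without single arrays. Positional factors called numbered 0 with no filter, 0 at the 60th percentile, 0 with a pseudocount of 1 and 0 to 1 without single arrays.

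Clearly expressed Hox genes in the pigmented line numbered 3 with the array median as background (Hoxa5, Hoxa11 and Hoxc6). They numbered 0 with the mean of probe sets, 0 without x and s probe sets and 1 to 3 without single arrays. In the non-pigmented line they numbered 6 with the median (Hoxa3, Hoxa5, Hoxa9, Hoxb3, Hoxb4 and Hoxc6). There they numbered 1 with the 99th percentile and 1 with the mean of probe sets. Without single arrays they numbered 3 to 6, the 6 without non-pigmented replicate 2.

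Signs turned for Hoxa5 under median centring (-0.02), with the mean of its probe sets (-1.80) and without x and s probe sets (-3.83), for Hoxa9 under quantile normalization (-0.21) and median centring (-0.14), and for Hoxb3 under these (-0.09 and -0.17). Without single arrays the differences ran from -0.70 to 1.15 for Hoxa5, -0.66 to 0.87 for Hoxa9, -0.53 to 0.68 for Hoxb3, -0.09 to 0.62 for Hoxa11, -0.88 to 0.21 for Hoxb1, -1.40 to 0.68 for Hoxb7 and -0.75 to 1.40 for Hoxc6. The causes were not tested. Median centring moved the median difference of all genes from 0.07 to -0.18. Most Hox genes were too near background for a difference to be read.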
